A study of Mus musculus with 22 samples.

Results

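The sirtuins Sirt1, Sirt2, Sirt3, Sirt4, Sirt5, Sirt6 and Sirt7 were followed by RNA sequencing of the distal colon in 3 groups of mice, named C57BL/6, Winnie and Winnie-Prolapse. The members were the 7 of 46078 genes in the count table that bear these symbols. They were grouped by the compartment in which the protein mainly works: nucleus (Sirt1, Sirt6 and Sirt7), cytosol (Sirt2) and mitochondria (Sirt3, Sirt4 and Sirt5). The Winnie mouse carries a mutation in Muc2, the gene of the main secreted mucin of the colon, and develops colitis spontaneously, while a Winnie-Prolapse mouse is a Winnie mouse with rectal prolapse. There were 8 C57BL/6 mice (wild type, control, 14 weeks of age, 4 males and 4 females), 7 Winnie mice (inflamed, 14 weeks, 3 males and 4 females) and 7 Winnie-Prolapse mice (severely inflamed, 18 weeks, 4 males and 3 females). No mouse received a treatment, all came from a shared breeding colony, and each library was made from the distal colon of 1 mouse. Because all Winnie-Prolapse mice were older than the mice of the other groups, prolapse and age cannot be told apart in any comparison with that group.

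Sirtuins are enzymes that use nicotinamide adenine dinucleotide (NAD+) as a co-substrate to remove acetyl, succinyl or other acyl groups from lysines of other proteins, and in doing so they release nicotinamide. Their activity is therefore tied to the supply of NAD+, which is rebuilt from nicotinamide by Nampt, and to competing consumers of NAD+ such as Cd38 and the poly(ADP-ribose) polymerases. In the intestine the nuclear members are known for their effects on chromatin, inflammatory transcription and DNA repair, and the mitochondrial members for the regulation of fuel oxidation, on which mature colonocytes depend. The question here was whether the transcripts of the family differ between the healthy, the inflamed and the severely inflamed colon.

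The libraries held 24.8 to 36.3 M counts assigned to genes, of which 3048 to 7096 fell on the 7 sirtuins. Values are given as CPM, the count of a gene divided by the TMM-scaled library total in M, and differences as log2 fold changes ± standard error with Benjamini-Hochberg adjusted p-values from the quasi-likelihood test of edgeR over all genes tested. At the mean count, counting error came to 2.13% of the value for Sirt7, 5.43% for Sirt3 and 7.13% for Sirt5, where the SD among C57BL/6 mice was 5.97%, 6.56% and 12.5% of the mean. Markers of epithelium, smooth muscle, goblet cells and neurons were all detected in the colon samples. The female Winnie-Prolapse replicate 6 stood apart, since milk protein genes took 18.98% of its counts and at most 0.00594% in the other Winnie-Prolapse libraries. Several results from both sexes together are therefore also given without it, whereas all fits of females alone with Winnie-Prolapse mice include it. In whole tissue, fewer cells of a type and less RNA per cell cannot be told apart.

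The 7 genes lie on 5 chromosomes of the mouse genome (GRCm38, GENCODE M21 annotation). The nuclear Sirt1 (ENSMUSG00000020063) was located at chr10:63319005-63381704, Sirt6 (ENSMUSG00000034748) at chr10:81621785-81627797 and Sirt7 (ENSMUSG00000025138) at chr11:120618372-120625240, each on the minus strand. The cytosolic Sirt2 (ENSMUSG00000015149) was located at chr7:28766735-28788661 on the plus strand. The mitochondrial Sirt3 (ENSMUSG00000025486) was located at chr7:140863666-140882309 and Sirt4 (ENSMUSG00000029524) at chr5:115478010-115484725 on the minus strand, and Sirt5 (ENSMUSG00000054021) at chr13:43365496-43395203 on the plus strand. All 7 passed the filter on low counts in all 3 comparisons.

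Levels were compared between genes only per length, as CPM per kilobase of joined exons. In C57BL/6 colon Sirt7, a nucleolar deacetylase linked to ribosomal RNA synthesis, had the highest level per length at 15.7 ± 0.938 (SD, n = 8). Sirt2, which deacetylates tubulin, followed at 11.1 ± 0.771, then Sirt6 at 6.37 ± 0.674 and Sirt1 at 4.74 ± 1.33. The mitochondrial genes came last in this order, with Sirt4 at 4.12 ± 0.431, Sirt3 at 2.56 ± 0.168 and Sirt5 at 1.22 ± 0.153. The mean levels per length kept this order in both Winnie groups, although neighbours were not always separate: in C57BL/6 the ranges of Sirt6 and Sirt1 and those of Sirt1 and Sirt4 overlapped, and Sirt1 lay above Sirt4 in 5 of 8 libraries. Dividing by the longest transcript in place of the joined exons put Sirt2 at 26.5 and Sirt7 at 24.7 CPM per kilobase, so which of the 2 leads depends on the gene model.

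When compared to C57BL/6, the Winnie-Prolapse colon held less RNA of the mitochondrial sirtuins and slightly less of Sirt2 and Sirt7, while Sirt6 did not follow. Sirt3 was the 1 sirtuin of 7 that passed the limits used in the study (adjusted p under 0.001 and at least 1.5-fold), which 8.47% of the 17397 genes tested passed in the lower direction. At an adjusted p under 0.05 with no limit on fold, 5 of 7 sirtuins were lower (Sirt2, Sirt3, Sirt4, Sirt5 and Sirt7) and none was higher, beside 26% of all genes lower. With TMM scaling Sirt3 and Sirt4 were the 2 members whose values did not overlap between the groups, beside 7.42% of all genes with no overlap in this direction. With library totals the 2 were Sirt3 and Sirt2, beside 9.45% of all genes, so that of the 7 members Sirt3 alone was separated under both scalings. The median log2 fold change of the 7 genes was −0.33, and that of all genes tested was −0.01. Without Winnie-Prolapse replicate 6, 1 sirtuin passed the stricter limits and 3 were lower at the looser one. The shares of all genes given above belong to the fit with all libraries.

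**Figure D1:**
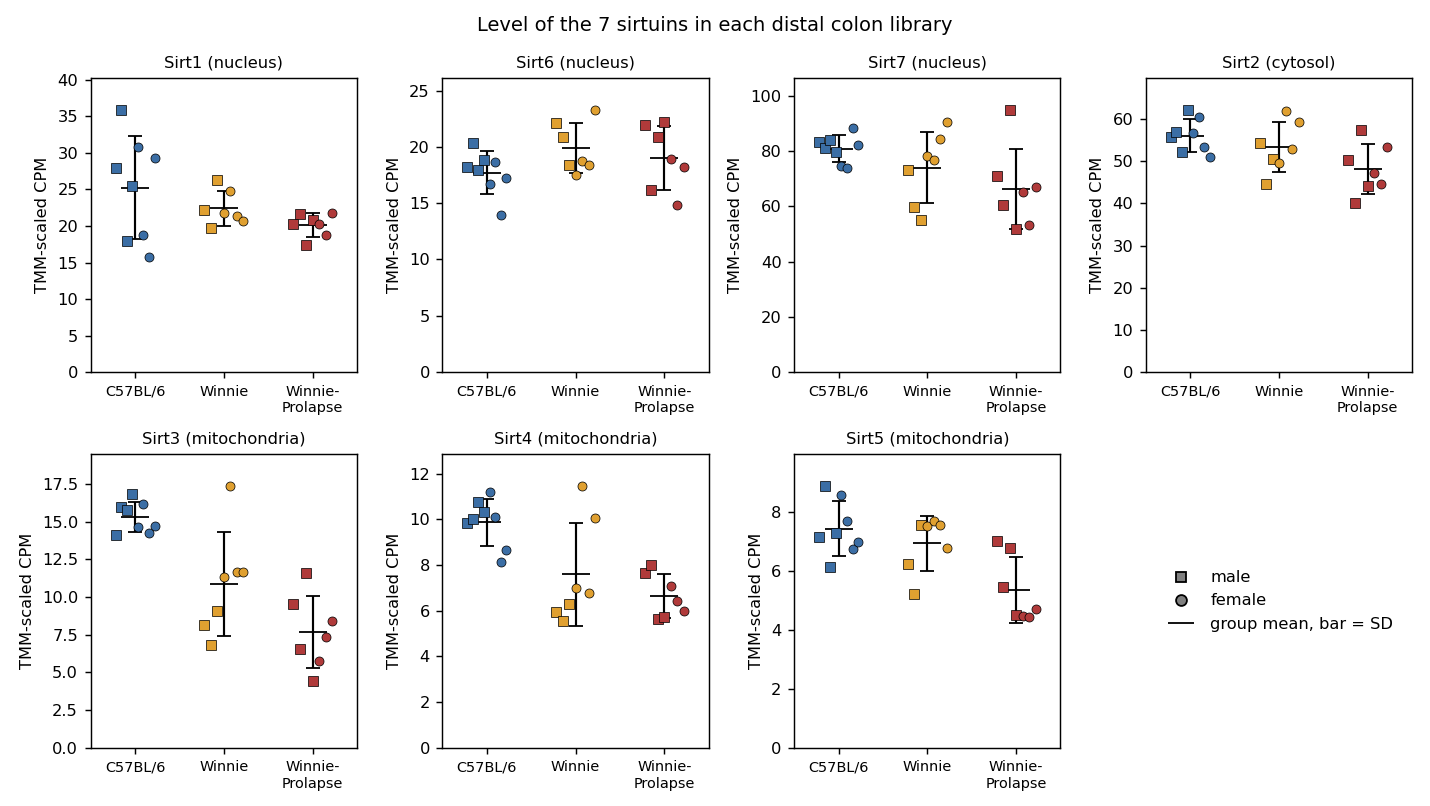
Level of each sirtuin in every library, in TMM-scaled CPM on axes that start at 0, with 1 panel per gene, libraries grouped as C57BL/6, Winnie and Winnie-Prolapse, squares for males, circles for females and a bar with whiskers for the mean ± SD. Sirt3 steps down from a mean of 15.3 through 10.8 to 7.66 CPM, whereas the means of Sirt6 lie between 17.7 and 19.9 CPM.

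**Figure D2:**
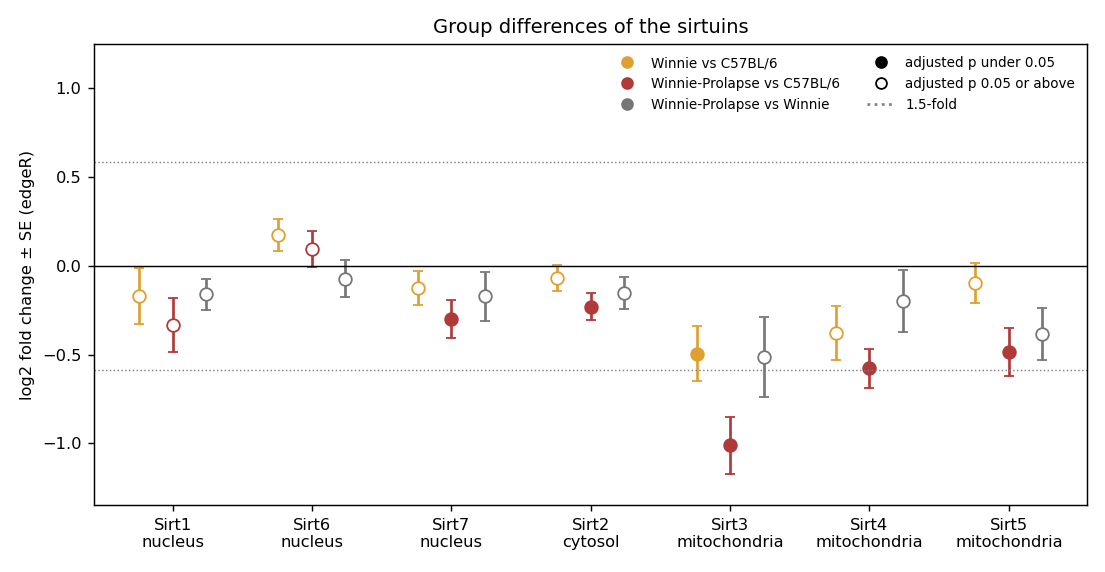
The log2 fold change of each sirtuin in the 3 comparisons with its standard error, from edgeR fits over all genes, with the members ordered by compartment, filled points at an adjusted p under 0.05 and dotted lines at 1.5-fold. Sirt3 at −1.01 in Winnie-Prolapse against C57BL/6 is farthest from 0, and Sirt6 lies on the positive side against C57BL/6 in both groups without passing a limit.

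Sirt3, the main deacetylase of the mitochondrial matrix, changed most. Its level in C57BL/6 mice ran from 14.1 over a median of 15.3 to 16.9 CPM. In Winnie-Prolapse mice it ran from 4.46 over a median of 7.32 to 11.6 CPM. All 7 Winnie-Prolapse mice lay below every C57BL/6 mouse, with male replicate 4 lowest and male replicate 3 highest. Sirt3 fell by 1.01 ± 0.16 on the log2 scale, which is 2.02-fold (adjusted p = 0.000105). Leaving out single libraries moved this between −1.13 and −0.90, and each adjusted p stayed at or under 0.000419. Without Winnie-Prolapse replicate 6 the log2 fold change was −0.99 (adjusted p = 0.000387). Within males alone it was −0.97 (adjusted p = 0.0261) and within females alone −1.07 (adjusted p = 0.00436), and neither subset passed the stricter p limit. In those fits 12.6% of all genes were lower in males and 15.2% in females at an adjusted p under 0.05. The difference between the sexes in this fold change was 0.10 ± 0.34 (adjusted p = 0.99999).

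Sirt4, a mitochondrial lipoamidase and ADP-ribosyltransferase that restrains glutamate dehydrogenase and pyruvate dehydrogenase, was separated with TMM scaling. Its level in C57BL/6 mice ran from 8.12 over a median of 10.1 to 11.2 CPM. In Winnie-Prolapse mice it ran from 5.63 over 6.43 to 8.01 CPM. All 7 Winnie-Prolapse mice again lay below every C57BL/6 mouse, although the highest and the lowest of the 2 groups nearly met. With library totals they overlapped, as Winnie-Prolapse replicate 2 (9.02 CPM) then lay above the lowest C57BL/6 mouse (8.40 CPM). Sirt4 fell by 0.58 ± 0.11 (adjusted p = 0.000512), a 1.49-fold change that lies inside the p limit and just short of the 1.5-fold limit. On leaving out C57BL/6 replicate 2, 7 or 8 or Winnie-Prolapse replicate 1, 2 or 7, it passed both. In females alone the adjusted p of Sirt4 was 0.0505 at a log2 fold change of −0.56.

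Sirt5, which removes succinyl, malonyl and glutaryl groups from mitochondrial enzymes, overlapped between the groups. Its level in C57BL/6 mice ran from 6.11 over a median of 7.20 to 8.88 CPM. In Winnie-Prolapse mice it ran from 4.42 over 4.71 to 7.00 CPM. Winnie-Prolapse replicates 1 and 3, both male, lay within the C57BL/6 range and the other 5 lay below it. Sirt5 fell by 0.48 ± 0.13 (adjusted p = 0.00717), a 1.40-fold change. In females alone it fell by 0.73 (adjusted p = 0.0170), and in males alone the log2 fold change was −0.32 (adjusted p = 0.285). The difference between the sexes in this fold change was itself not called (0.41 ± 0.26, adjusted p = 0.99999).

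The nuclear members did not move as a group in Winnie-Prolapse mice. Sirt1, which deacetylates histones and transcription factors such as RelA and the coactivator Ppargc1a, had the widest spread of the family in healthy colon. Its level in C57BL/6 mice ran from 15.8 over a median of 26.8 to 35.9 CPM. In Winnie-Prolapse mice it ran from 17.4 over 20.3 to 21.8 CPM. C57BL/6 replicates 3, 6 and 7 lay at 15.8 to 18.8 CPM, among or below the Winnie-Prolapse mice, and the other 5 lay above all of them. The log2 fold change of −0.33 ± 0.15 did not pass (adjusted p = 0.0797). Leaving out C57BL/6 replicate 7 brought the adjusted p to 0.0236 and leaving out replicate 3 brought it to 0.0481.

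Sirt6, a chromatin-bound deacetylase that acts in DNA repair and telomere maintenance, was the member with the least difference. Its level ran from 14.0 over a median of 18.1 to 20.3 CPM in C57BL/6 mice and from 14.8 over 18.9 to 22.2 CPM in Winnie-Prolapse mice. The ranges overlapped, with 3 of the 7 Winnie-Prolapse mice above every C57BL/6 mouse and the other 4 within the C57BL/6 range. The log2 fold change was 0.09 ± 0.10 (adjusted p = 0.443).

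Sirt7 fell by 0.30 ± 0.11 (adjusted p = 0.0259), with male Winnie-Prolapse replicate 3 on the opposite side. Its level ran from 73.8 over a median of 81.7 to 88.3 CPM in C57BL/6 mice. In Winnie-Prolapse mice it ran from 51.7 over 65.1 to 94.9 CPM. With TMM scaling replicate 3 held the highest Sirt7 value of all 22 libraries, and the other 6 lay below every C57BL/6 mouse. With library totals replicate 3 lay at 83.1 CPM, within the C57BL/6 range of 74.9 to 91.5 CPM, and the other 6 again lay below it. Sirt2 fell by 0.23 ± 0.08 (adjusted p = 0.0185), from 51.0, 56.2 and 62.2 CPM (lowest, median and highest) in C57BL/6 mice to 40.1, 47.3 and 57.5 CPM in Winnie-Prolapse mice, 5 of which lay below all C57BL/6 mice. Both calls were close to the limit: without Winnie-Prolapse replicate 6 the adjusted p was 0.0745 for Sirt7 and 0.0595 for Sirt2, and with no filter on low counts it was 0.0635 and 0.0592. Sirt7 also lost its call on leaving out C57BL/6 replicate 1, 3 or 7 or Winnie-Prolapse replicate 2, 4 or 5 (adjusted p from 0.0511 to 0.0737), and Sirt2 on leaving out C57BL/6 replicate 4 or 6 or Winnie-Prolapse replicate 2, 4 or 5 (from 0.0519 to 0.0610). In single sexes Sirt2 did not pass (adjusted p = 0.185 in males and 0.181 in females), and Sirt7 did not in males (0.315) but did in females (0.0479).

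Expressed as shares of the summed length-corrected level of all 7 genes, the family became less mitochondrial. The mitochondrial members made up 17.2 ± 1.04% (SD, n = 8) in C57BL/6 mice, 14.3 ± 2.37% (n = 7) in Winnie mice and 13.03 ± 1.56% (n = 7) in Winnie-Prolapse mice. The C57BL/6 mice lay between 16.03% and 18.5% and the Winnie-Prolapse mice between 11.2% and 15.3%, with no overlap. The Winnie mice were not uniform, as the share of Winnie replicate 5 lay above that of every C57BL/6 mouse. The share of Sirt3 alone went from 5.60% over 4.22% to 3.33%, while that of Sirt6 went from 13.9% over 17.0% to 18.1%. The cytosolic share of Sirt2 stayed within 24.3% to 25.2% between the group means. These shares are a description, since the members were chosen together.

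Sirt3 and Sirt2 each start next to a gene that runs the other way, and these neighbours were examined because the annotation showed their exons to overlap. In RefSeq (GRCm38.p6) the upstream start of Sirt3 lies 85 bases from that of Psmd13, a subunit of the proteasome, and the start of Sirt2 lies 108 bases from that of Nfkbib, an inhibitor of NF-kB. Between the groups, Psmd13 rose where Sirt3 fell. Its level ran from 51.6 over a median of 55.7 to 67.3 CPM in C57BL/6 mice and from 71.3 over 80.0 to 94.0 CPM in Winnie-Prolapse mice. All 7 Winnie-Prolapse mice lay above every C57BL/6 mouse, and the log2 fold change was 0.52 ± 0.08 (adjusted p = 0.000121). Within Winnie-Prolapse mice replicate 3 was highest and replicate 4 lowest for both genes. C57BL/6 replicate 4 and Winnie replicate 5 were the highest of their groups for Sirt3 and the lowest for Psmd13. The log2 ratio of Psmd13 to Sirt3 within a library, in CPM, was 1.90 ± 0.18 (SD) in the C57BL/6 mice, against 2.67 ± 0.57 for Winnie mice and 3.49 ± 0.45 for Winnie-Prolapse mice. Between the groups Nfkbib likewise rose where Sirt2 fell. It went from 22.2, 24.3 and 27.6 CPM (lowest, median and highest) in C57BL/6 mice to 28.2, 36.5 and 43.8 CPM in Winnie-Prolapse mice, again with no overlap. In the higher direction 9.16% of all genes had no overlap. The log2 fold change of Nfkbib was 0.56 ± 0.09 (adjusted p = 0.000159). Within Winnie-Prolapse mice replicate 2 was lowest and replicate 3 highest for both genes. Winnie replicate 5 was the highest of its group for Sirt2 and the lowest for Nfkbib. The exons shared on opposite strands cover 5.7% of the joined exons of Sirt3 with Psmd13 and 0.8% of those of Sirt2 with Nfkbib. Ric8a, whose exons cover a further 7.0% of those of Sirt3 on the opposite strand, had a log2 fold change of −0.14 (adjusted p = 0.0909). Mafg, whose exons cover 2.4% of those of Sirt7 on the same strand, had a log2 fold change of −0.08 (adjusted p = 0.568) in Winnie-Prolapse mice and of −0.34 (adjusted p = 0.0323) in Winnie mice. Whether the counts were assigned by strand is not given in the sources used here, so in these shared stretches reads of the partners could not be separated.

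**Figure D3:**
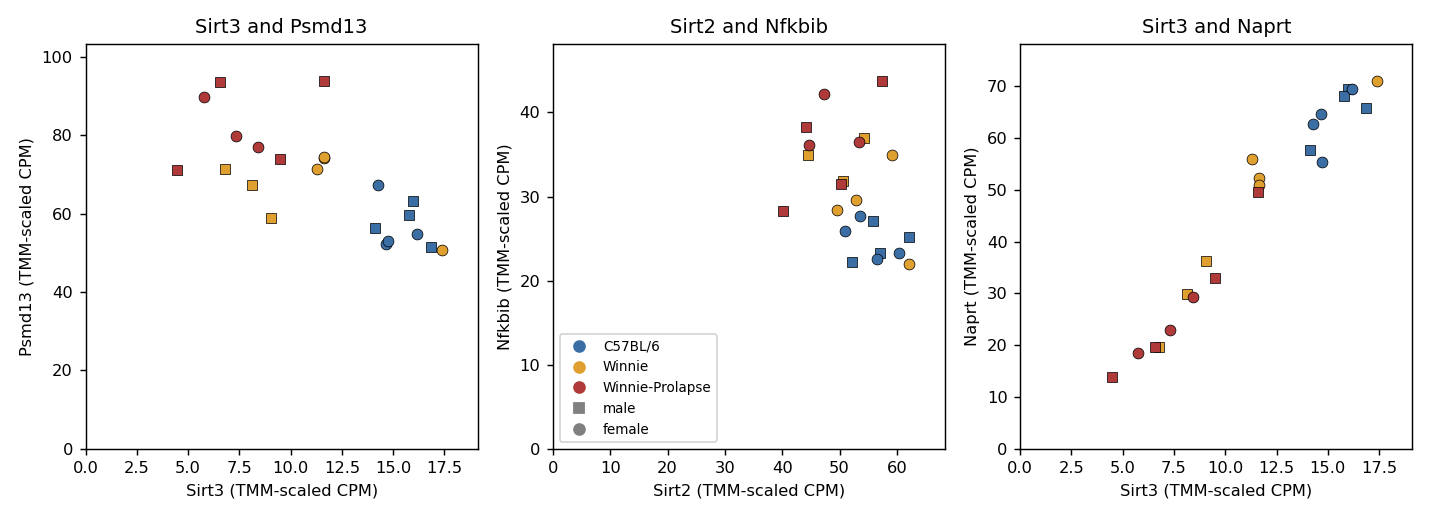
Each point is 1 library, in TMM-scaled CPM on both axes, coloured by group with squares for males and circles for females. The panels set Sirt3 against Psmd13, Sirt2 against Nfkbib and Sirt3 against Naprt: Winnie-Prolapse libraries lie at high Psmd13 (71.3 to 94.0 CPM) and low Sirt3 (4.46 to 11.6 CPM), whereas Sirt3 and Naprt lie along a common line.

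The start regions of the members that fell and of Sirt6, which did not, are shown so that the letters of members that fell together can be read beside those of a member that did not. Each window holds 250 bases before and 50 after a RefSeq start and is written 5′ to 3′ on the strand of the gene. The letters ACTTCCGG, a long form of an ETS-type site, are in capitals where a search of both strands found them. Shorter or varied forms of this site were not searched for and are not marked.
Sirt3, chr7:140882260-140882559, minus strand: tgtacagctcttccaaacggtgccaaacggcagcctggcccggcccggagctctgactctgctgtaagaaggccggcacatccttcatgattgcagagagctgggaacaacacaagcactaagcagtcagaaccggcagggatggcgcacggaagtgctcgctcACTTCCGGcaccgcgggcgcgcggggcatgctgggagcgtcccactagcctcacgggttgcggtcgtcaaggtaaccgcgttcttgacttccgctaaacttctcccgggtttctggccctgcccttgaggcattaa
Sirt3, second window, chr7:140881820-140882119, minus strand: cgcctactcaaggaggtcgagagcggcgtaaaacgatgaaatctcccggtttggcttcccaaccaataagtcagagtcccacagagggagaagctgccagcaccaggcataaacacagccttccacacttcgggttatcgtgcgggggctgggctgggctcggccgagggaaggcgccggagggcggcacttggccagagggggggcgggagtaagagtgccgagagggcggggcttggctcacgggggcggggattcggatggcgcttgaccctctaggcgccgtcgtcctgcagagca
Sirt4, chr5:115484248-115484547, minus strand: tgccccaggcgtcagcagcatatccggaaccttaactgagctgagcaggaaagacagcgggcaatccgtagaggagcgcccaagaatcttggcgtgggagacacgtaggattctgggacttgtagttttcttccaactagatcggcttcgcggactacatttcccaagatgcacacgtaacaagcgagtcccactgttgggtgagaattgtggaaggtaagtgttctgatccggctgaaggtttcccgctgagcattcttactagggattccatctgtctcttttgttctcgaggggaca
Sirt5, chr13:43365285-43365584, plus strand: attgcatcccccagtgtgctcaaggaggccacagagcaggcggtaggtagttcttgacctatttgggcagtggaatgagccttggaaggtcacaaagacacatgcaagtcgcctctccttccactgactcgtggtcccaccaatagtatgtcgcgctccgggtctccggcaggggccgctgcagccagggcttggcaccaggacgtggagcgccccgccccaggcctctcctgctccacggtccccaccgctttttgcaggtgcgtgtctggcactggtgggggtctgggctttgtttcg
Sirt2, chr7:28766502-28766801, plus strand: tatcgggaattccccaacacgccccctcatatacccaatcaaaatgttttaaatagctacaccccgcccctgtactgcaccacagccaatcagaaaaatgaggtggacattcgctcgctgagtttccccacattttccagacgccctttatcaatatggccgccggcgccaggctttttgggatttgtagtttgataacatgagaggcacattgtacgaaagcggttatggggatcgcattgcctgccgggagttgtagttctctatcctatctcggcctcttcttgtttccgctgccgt
Sirt7, chr11:120624965-120625264, minus strand: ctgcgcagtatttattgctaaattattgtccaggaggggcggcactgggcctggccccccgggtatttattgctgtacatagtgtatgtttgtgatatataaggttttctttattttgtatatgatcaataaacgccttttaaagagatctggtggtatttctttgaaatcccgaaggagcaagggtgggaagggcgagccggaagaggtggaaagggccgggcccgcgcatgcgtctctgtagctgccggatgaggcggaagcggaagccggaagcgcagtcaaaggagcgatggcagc
Sirt6, chr10:81627517-81627816, minus strand: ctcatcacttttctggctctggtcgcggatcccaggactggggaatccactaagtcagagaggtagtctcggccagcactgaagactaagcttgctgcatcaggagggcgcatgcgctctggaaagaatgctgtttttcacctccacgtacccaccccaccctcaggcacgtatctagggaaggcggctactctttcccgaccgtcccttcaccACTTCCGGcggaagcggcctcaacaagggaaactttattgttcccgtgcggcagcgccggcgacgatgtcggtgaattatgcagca

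The ETS-type letters were found in the upstream window of Sirt3, beginning 86 bases before its start, and in 1 of 2 windows of Sirt6, beginning 36 bases before its start. They occur in 3.89% of the 32851 windows of the same length. The match in the Sirt3 window is the same stretch that lies at the start of Psmd13, because the windows of Sirt3 and Psmd13 share 184 bases. The windows of Sirt2 and Nfkbib share 207 bases and do not hold these letters. Sirt3, which fell, and Sirt6, which did not, thus both carry the letters, whereas the windows of Sirt4, Sirt5, Sirt2 and Sirt7 do not. The second window of Sirt3, at the more downstream of its 2 starts, does not hold them either, and it has 4 GC boxes (GGGCGG, in 35.7% of windows) and 1 CCAAT box (CCAAT, in 37.4%). Sirt2 and Sirt5 also hold at least 1 of each, Sirt7 holds 1 GC box and no CCAAT box, and neither was found in the window of Sirt4, in the upstream window of Sirt3 or in the Sirt6 window shown. No sirtuin window holds TATAAA, found in 13.6% of windows. The Sirt1 window is the richest in G and C of the family, at 79.0% with 47 CpG dinucleotides, where the median over all windows is 52.7% and 7 CpG. Both strands were searched, none of these letter strings contains another, and a match is a description of letters only.

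In Winnie mice without prolapse, Sirt3 was the 1 sirtuin that was lower than in C57BL/6 at an adjusted p under 0.05, beside 11.9% of the 17289 genes tested, and none was higher. No sirtuin passed the stricter limits, which 16 genes (0.0925%) passed in either direction. That number changed widely when single libraries were left out. With edgeR 2 of 7 sirtuins had an unadjusted p under 0.05, beside 39.9% of genes. DESeq2 and limma-voom also called 0 at the stricter limits, and at an adjusted p under 0.05 they called 1 and 2 lower. At the stricter limits limma-voom called 0 of all genes, and DESeq2 called many more genes than edgeR, as given under the processing. Sirt3 ran from 6.79 over a median of 11.3 to 17.4 CPM in Winnie mice. Female replicate 5 lay above every C57BL/6 mouse and the other 6 lay below all of them. The log2 fold change was −0.50 ± 0.15 (adjusted p = 0.0292). Without Winnie replicate 5 Sirt3 fell by 0.65 (adjusted p = 0.00138), and without Winnie replicate 1, 2 or 3 or C57BL/6 replicate 4 the adjusted p lay between 0.0518 and 0.0677. With all 3 groups in 1 fit it was 0.0508.

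Sirt4 in Winnie mice divided in a like manner, from 5.56 over a median of 6.76 to 11.48 CPM. Replicate 5 was again above every C57BL/6 mouse and 5 mice were below all of them. The log2 fold change of Sirt4 was −0.38 ± 0.15 (adjusted p = 0.0802), and without Winnie replicate 5 it was −0.51 (adjusted p = 0.00943) and without Winnie replicate 7 it was −0.46 (adjusted p = 0.0459). It also passed with library totals (−0.46, adjusted p = 0.0420) and with limma-voom (−0.42, adjusted p = 0.0445). The other 5 members had log2 fold changes between −0.17 (Sirt1, adjusted p = 0.442) and 0.17 (Sirt6, adjusted p = 0.167). Sirt7 was −0.13 ± 0.10 (adjusted p = 0.343), Sirt5 −0.10 ± 0.11 (adjusted p = 0.555) and Sirt2 −0.07 ± 0.07 (adjusted p = 0.497). The 7 had a median log2 fold change of −0.13, beside −0.01 for all genes. Both of these comparisons use the same C57BL/6 mice. Psmd13 had a log2 fold change of 0.23 (adjusted p = 0.0692) and Nfkbib of 0.35 (adjusted p = 0.0218) in Winnie mice.

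Between Winnie-Prolapse and Winnie mice no sirtuin was called at either limit. At an adjusted p under 0.05, 8.74% of the 17041 genes tested were called, and 0% passed the stricter limits. With edgeR 2 of the 7 sirtuins had an unadjusted p under 0.05, beside 27.8% of genes, and DESeq2 and limma-voom called 0 sirtuins at an adjusted p under 0.05. Sirt3 had a log2 fold change of −0.51 ± 0.23 (adjusted p = 0.157), Sirt5 of −0.38 ± 0.15 (adjusted p = 0.105) and Sirt4 of −0.20 ± 0.17 (adjusted p = 0.490). The values of the 2 groups overlapped for every member, while 1.11% of all genes had no overlap. Sirt7, Sirt1 and Sirt2 had log2 fold changes of −0.17, −0.16 and −0.15, and Sirt6 of −0.07. Among females alone Sirt3 fell by 0.88 (adjusted p = 0.0335), Sirt5 by 0.72 (adjusted p = 0.0200) and Sirt7 by 0.44 (adjusted p = 0.0367). In that fit, which includes Winnie-Prolapse replicate 6, 7.43% of all genes were lower. Among males the log2 fold change of Sirt3 was 0.0030, in a fit that called 0 of 17560 genes in either direction.

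The sex of each mouse is recorded, and with TMM scaling the values of Winnie males lay below those of Winnie females without overlap for 3 of 7 sirtuins (Sirt3, Sirt4 and Sirt7), beside 10.4% of all genes in this direction. The test of sex by group did not pass for any of them. The 3 Winnie males held 7.98 ± 1.13 CPM of Sirt3 (SD), between 6.79 and 9.04 CPM. The 4 Winnie females held 12.98 ± 2.94 CPM, between 11.3 and 17.4 CPM, all above the males. Sirt4 ran from 5.56 to 6.32 CPM in the males and from 6.76 to 11.48 CPM in the females, and Sirt7 from 54.96 to 73.2 CPM and from 76.8 to 90.6 CPM. With library totals the Sirt4 values of the sexes overlapped. The summed level of 8 colonocyte markers, genes of mature absorptive cells, also separated these mice, at 1820 to 4181 CPM in the males and 5385 to 11294 CPM in the females, and its part in these values was not tested. In C57BL/6 mice the means were 15.7 CPM in males and 15.0 CPM in females, and in Winnie-Prolapse mice 8.04 and 7.16 CPM. In the edgeR interaction test the Winnie effect on Sirt3 was lower in males by a log2 difference of −0.77 ± 0.21, which did not pass after adjustment (adjusted p = 0.105). In males alone, Winnie against C57BL/6, Sirt3 fell by 0.97 (adjusted p = 0.00307), Sirt4 by 0.78 (adjusted p = 0.00561) and Sirt7 by 0.38 (adjusted p = 0.0342), beside 13.9% of all genes lower in that fit. In females alone the log2 fold change of Sirt3 was −0.21 (adjusted p = 0.527), in a fit where 0 of 17260 genes were lower and 1 was higher. In the interaction test Sirt7 differed by −0.43 ± 0.14 (adjusted p = 0.153) and Sirt4 by −0.67 ± 0.25 (adjusted p = 0.189). Thus 0 of 7 sirtuins were called and 3 had an unadjusted p under 0.05, beside 0.247% of genes called and 18.2% with an unadjusted p under 0.05. In the interaction tests of the other two comparisons 0% of genes and 0 sirtuins were called, with 0 and 2 sirtuins at an unadjusted p under 0.05, beside 4.4% of genes for Winnie-Prolapse against C57BL/6 and 12.7% for Winnie-Prolapse against Winnie. Over all groups, no sirtuin was called between males and females at an adjusted p under 0.05, where 0.0768% of genes were, and 1 sirtuin, Sirt6, had an unadjusted p under 0.05 (0.16 higher in males on the log2 scale, adjusted p = 0.964).

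The genes whose log2 CPM ran most like that of each sirtuin over the 22 libraries were ranked among 13600 genes by Pearson's r, first as measured and then after the group means were subtracted. These are descriptions over libraries that share groups and depth scaling. Sirt3 ran closest to Naprt (r = 0.98, and 0.96 within groups), the enzyme of the first step from nicotinic acid towards NAD+, and to the ubiquitin ligase Mkrn1 (0.97 and 0.94). Sirt5 ran closest to Iyd, an iodotyrosine deiodinase (0.91 and 0.81), and to Pm20d1, which makes N-acyl amino acids (0.90 and 0.80). Sirt4 was followed by Thap3 and Acp6, at 0.89 and 0.78 each. Sirt7 ran closest to Atp5h, a subunit of the ATP synthase (0.96 and 0.97), and to Srek1ip1 (0.94 and 0.93). Sirt2 ran closest to the mitochondrially encoded complex I subunit mt-Nd4 (0.90 and 0.86) and to Rfxank (0.88 and 0.82). Sirt1 ran closest to Epc1 (0.94 and 0.94), a subunit of a histone acetyltransferase complex, and to Setmar (0.92 and 0.90), and Sirt6 to Sppl2b (0.85 and 0.87) and Zfpl1 (0.82 and 0.79). Naprt and Mkrn1 were picked for their likeness to Sirt3 over these same libraries, so their lower level in Winnie-Prolapse mice is no separate result. Mkrn1 went from 332 CPM in C57BL/6 to 158 CPM in Winnie-Prolapse mice (log2 fold change −1.09). Within the family, Sirt3 as measured ran closest to Sirt5 (r = 0.81, 0.66 within groups) and to Sirt2 (0.81 and 0.73). Within groups Sirt2 and then Sirt7 (0.68) lay closer to Sirt3 than Sirt5 did. Sirt6 stood between −0.20 and 0.19 with the other members as measured, and between −0.03 and 0.38 within groups.

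Markers of other cell types moved with some members. The summed level of 8 markers of mature colonocytes (Slc26a3, Slc26a2, Car1, Car4, Aqp8, Guca2a, Ms4a12 and Ceacam20) averaged 9795 CPM in C57BL/6 mice (6989 to 11570), 6776 CPM in Winnie mice (1820 to 11294) and 2030 CPM in Winnie-Prolapse mice (594 to 5672), and none of the 8 was at 0. Of these markers 3 of 8 were lower in Winnie-Prolapse than in C57BL/6 mice at the stricter limits and 6 of 8 at an adjusted p under 0.05, and 2 and 6 without Winnie-Prolapse replicate 6. Sirt3 ran with the log2 of this sum at r = 0.93 over the 22 libraries and 0.86 within groups. Sirt5 followed at 0.88 and 0.74, Sirt7 at 0.80 and 0.77, Sirt2 at 0.76 and 0.62 and Sirt4 at 0.60 and 0.24. Sirt1 (0.28 and −0.07) and Sirt6 (−0.10 and 0.03) did not run with it. Winnie-Prolapse replicate 3 had both the highest Sirt3 and the most colonocyte marker RNA of its group, and replicate 4 had the least of both. The general epithelial markers went from 15054 to 16482 CPM, and 0 of 8 passed the stricter limits. The 10 smooth muscle markers went from 9850 to 2827 CPM with 10 of 10 lower at the stricter limits, and Sirt3 ran with them at 0.79 over all libraries and 0.35 within groups. Other markers differed as well: those of enteric neurons were lower (8 of 10 at the stricter limits) and those of enteric glia (3 of 9, and 5 of 9 without Winnie-Prolapse replicate 6), while neutrophil markers (5 of 6 tested) and squamous markers (5 of 6 tested) were higher. The squamous sum went from 8.06 to 50.5 CPM among C57BL/6 mice to 110 to 3797 CPM among Winnie-Prolapse mice, and Sirt3 ran against it at r = −0.84, and −0.60 within groups. Fibroblast markers passed the stricter limits in 0 of 6 and were higher in 4 of 6 at an adjusted p under 0.05, and Sirt3 ran against their sum at −0.69, and −0.80 within groups. Markers of proliferation and of endothelium also moved. Without Winnie-Prolapse replicate 6, 8 of 8 and 4 of 4 of them were higher at an adjusted p under 0.05. The relations were thus not limited to colonocyte markers. Sirt3 ran against proliferation markers at −0.84, and −0.68 within groups, and Sirt2 at −0.73 and −0.68. Sirt7 ran with general epithelial markers at 0.56 and 0.84, with goblet markers at 0.77 and 0.69, and against endothelial markers at −0.81 and −0.74. Sirt4 ran against macrophage markers at −0.77 and −0.51. The part of these markers in the fall of the sirtuins was not tested.

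**Figure D4:**
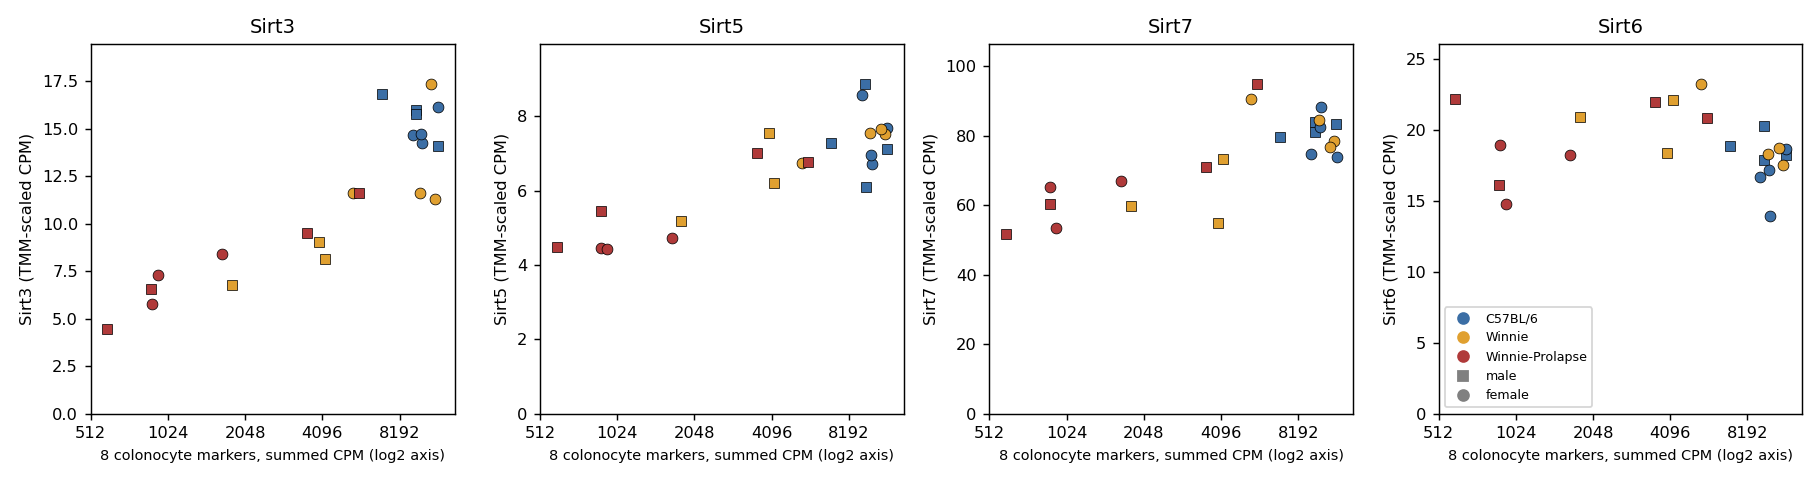
Each panel sets 1 sirtuin (Sirt3, Sirt5, Sirt7 and Sirt6, TMM-scaled CPM on a linear axis from 0) against the summed CPM of 8 colonocyte markers on a log2 axis, with 1 point per library coloured by group and squares for males. Sirt3 climbs with the marker sum (r = 0.93), while Sirt6 stays between 14.0 and 23.3 CPM across it.

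The genes around the sirtuins were read from 6 further lists, in Winnie-Prolapse against C57BL/6 mice unless stated, where 18.3% of all genes passed the stricter limits. Of the NAD+ synthesis genes tested, 1 of 10 rose and 2 of 10 fell at the stricter limits, and 1 rose and 6 fell at an adjusted p under 0.05, beside 26.5% of all genes higher and 26% lower at that limit, with a median log2 fold change of −0.43. The one that rose was Nampt, the rate-limiting enzyme of NAD+ salvage, from 72.4 ± 8.54 to 163 ± 27.9 CPM (log2 fold change 1.15, adjusted p = 1.25e-06, 7 of 7 above all C57BL/6 mice). Naprt fell from 64.1 ± 5.28 to 26.7 ± 12.0 CPM (−1.28, adjusted p = 0.000123) and Nadsyn1, the last step from nicotinic acid, from 35.9 ± 3.16 to 22.03 ± 6.26 CPM (−0.71, adjusted p = 0.000531). Without Winnie-Prolapse replicate 6 the counts at the stricter limits were 1 higher and 1 lower.

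Other consumers of NAD+ mostly rose: 5 of 11 were higher at the stricter limits, beside 9.84% of all genes, and 0 lower, and 8 were higher and 1 lower at an adjusted p under 0.05, beside 26.5% of all genes higher, with a median of 0.65. The largest were Bst1, a cyclic ADP-ribose synthase, at a log2 fold change of 2.70, and the ADP-ribosyltransferases Parp14 at 1.68 and Parp3 at 1.57. Markers of immune cells rose beside them, 7 of 8 for macrophages and 5 of 8 for T cells at the stricter limits, and their part in these values was not tested. Cd38, the main NAD+ glycohydrolase of immune cells, rose from 258 ± 24.9 to 561 ± 141 CPM (1.11, adjusted p = 1.60e-05). Parp1, the chief DNA damage polymerase, was at 30.6 ± 3.94 and 30.9 ± 6.48 CPM (0.01, adjusted p = 0.969). In Winnie mice 6 of these 11 were already higher and 1 lower at an adjusted p under 0.05, beside 13.8% of all genes higher, with Cd38 at 0.89 (adjusted p = 0.00340) and Parp14 at 1.21 (adjusted p = 0.00340). Nampt was likewise higher in Winnie mice, at 0.82 (adjusted p = 0.00479).

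Of 6 partners and regulators of sirtuins none passed the stricter limits. At an adjusted p under 0.05, 2 of 6 rose, beside 26.5% of all genes higher. Ccar2, which binds and inhibits Sirt1, was among these 2, at 0.30 (adjusted p = 0.000670). It was named after its value was seen. Genes for nuclear and cytosolic substrates of sirtuins went both ways, with 2 of 12 higher and 3 of 12 lower at the stricter limits and a median of −0.05, and 2 and 2 without Winnie-Prolapse replicate 6. Hif1a, the hypoxia-inducible factor, rose by 1.28 and G6pdx, which feeds the pentose phosphate pathway, by 1.02. Ppargc1a, the coactivator of mitochondrial biogenesis, fell by 1.48 on the log2 scale (adjusted p = 0.000694), Foxo3 by 1.19 and Foxo4 by 0.64. Of 13 genes for mitochondrial substrates, 2 rose at the stricter limits, the serine hydroxymethyltransferase Shmt2 by 1.39 and the acyl-CoA dehydrogenase Acadl by 0.68, and 4 rose and 4 fell at an adjusted p under 0.05. The median of these 13 was −0.08, beside −0.01 for all genes, and without Winnie-Prolapse replicate 6 there were 2 higher and 1 lower at the stricter limits. Of 11 zinc-dependent histone deacetylases, the other deacetylase family, 2 fell at the stricter limits, Hdac11 by 1.76 and Hdac5 by 1.24, and none rose at them. Of all genes 8.47% were lower at these limits. At an adjusted p under 0.05 the family went both ways, with 2 higher and 3 lower, beside 26.5% of all genes higher and 26% lower.

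**Figure D5:**
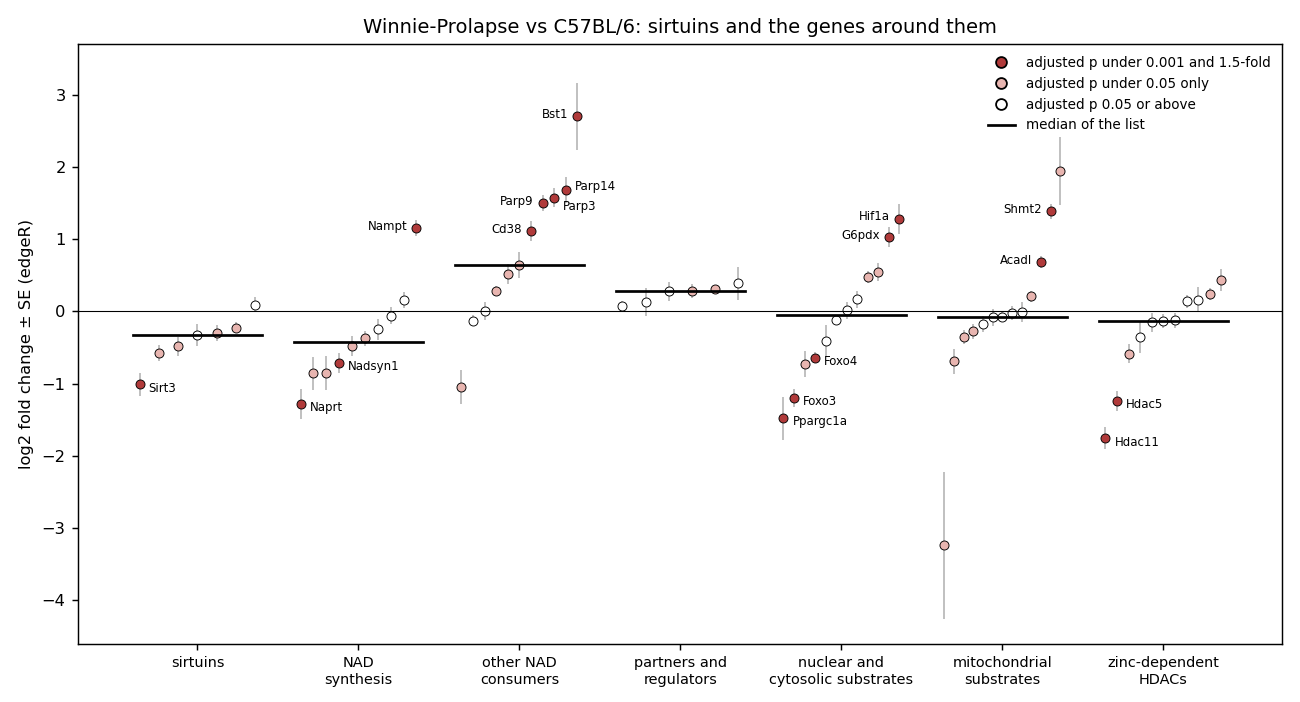
Log2 fold change of every tested gene of the sirtuin family and of 6 related lists in Winnie-Prolapse against C57BL/6 mice, 1 column per list, with filled points for genes past the stricter limits, light points for genes at an adjusted p under 0.05 only, open points for the rest, grey bars for the standard error and thick lines for the median of a list. The sirtuins lie between −1.01 and 0.09, whereas 5 of 11 other NAD+ consumers are past the stricter limits on the positive side.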

How the data were processed

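Distal colon RNA of 22 mice was sequenced from poly(A)-selected, stranded, paired-end libraries, after the segments had been snap frozen and RNA of high integrity extracted. The authors aligned the reads to GRCm38 and counted them per gene. The submitters' processing notes name STAR, featureCounts and limma, without versions. The deposited values are raw counts per gene, read here as they stand. The annotation release, the strand setting and the handling of shared reads are not given in the sources used here. The study's text gives fewer Winnie mice than the 7 that the labels hold, and all 7 were used.

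For every comparison the 2 groups concerned, males and females alike, were fitted with edgeR 4.0.16 (R 4.3.3): TMM factors, filterByExpr, quasi-likelihood F test and Benjamini-Hochberg adjustment over all genes tested. The limits of an adjusted p under 0.001 and 1.5-fold follow the study's methods, and a looser limit, an adjusted p under 0.05 at any fold, was used beside them. Sex was tested with group as a covariate and as an interaction. Scripts were tested on simulated data. Library totals, DESeq2 1.42.0, limma-voom (limma 3.58.1), other filters, single sexes and leaving out each library were tried as alternatives. Replicates are separate mice numbered in accession order. No pair of libraries within a group agreed within sampling noise. Log2 CPM for correlations used a prior count of 2, and genes ranked by likeness needed a mean log2 CPM of at least 1.

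Genes named were the 7 sirtuins, from each list up to 3 higher and 3 lower genes with the largest change past the stricter limits in Winnie-Prolapse against C57BL/6 mice, Nampt, Cd38 and Parp1, and for each sirtuin the 2 genes most like it. The neighbours Psmd13, Nfkbib, Ric8a and Mafg, the motifs and Ccar2 were added after values were seen. The members and lists were chosen with earlier results of these data known. Promoter windows came from RefSeq (GRCm38.p6), in which all 7 sirtuins matched by symbol. All levels rest on 24.8 to 36.3 M counts per library.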

Additional observations from a re-analysis of the deposited data

Results flagged for a closer look

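Of 135 groups of values checked (those of 42 genes among them), 4 had 1 library set far apart from the rest of its group, and about 1 in 20 groups would be so by chance. No sirtuin was among them. Bst1 was at 3.81 CPM in C57BL/6 replicate 5, with the others between 0.665 and 1.97 CPM. Hdac11 was at 46.1 CPM in Winnie replicate 5, the female that also had the highest Sirt3 and Sirt4 of its group, with the others between 13.9 and 26.8 CPM. Milk protein genes took 18.98% of the counts of Winnie-Prolapse replicate 6, with the others between 0.000346% and 0.00594%. In C57BL/6 replicate 5 they took 0.00252%, with the others between 0.000196% and 0.000779%. Whether mammary tissue was present in these samples was not tested.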

How the results depend on the processing

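The fall of Sirt3 in Winnie-Prolapse mice kept its direction in every fit run, between −1.13 and −0.90 with single libraries left out and between −1.10 and −0.97 otherwise. Values of single genes and lists under alternatives were set against the main call at the stricter limits (an adjusted p of 0.05 for sex). Where the alternative was itself a looser p limit, that limit was used. List counts within 1.5-fold of the main count were taken as unchanged. On this basis 672 values stayed the same, 11 came to pass, 2 no longer passed and 7 changed sign. The 11 include calls made only at a looser p limit. An adjusted p of 0.05 was crossed 37 times in the group comparisons. The changes of sign were Winnie against C57BL/6 in females (Sirt7 0.040, Sirt2 0.0058), Winnie-Prolapse against Winnie in males (Sirt7 0.14, Sirt3 0.0030, Sirt4 0.18), and the sex difference under library totals (Sirt2 0.023, Sirt7 0.0031). Sirtuins called in Winnie-Prolapse against C57BL/6 mice (1) became 0 in males alone and 0 in females alone, 5 at an adjusted p under 0.05, and 1 to 2 with single libraries left out, since Sirt4 crossed 1.5-fold; in Winnie mice 0 became 1 at that looser p. Genes called in Winnie against C57BL/6 (16, of 6901 at an unadjusted p under 0.05) became 8 with library totals, 1205 with DESeq2, 0 with limma-voom, 30 with the other edgeR dispersion setting, 10 with a robust fit, 68 with no filter, 0 with at least 10 counts in every library, 199 with all groups in 1 fit, 130 in males, 0 in females, 2757 and 1030 at adjusted p under 0.05 and 0.01 with 1.5-fold, 4441 without the fold, and 0 to 677 with single libraries left out (677 without Winnie replicate 5). For Winnie-Prolapse against C57BL/6 the 3186 became 5005 with DESeq2, 307 in males, 255 in females, 5981, 4954 and 9135 at those p limits, and 2517 to 3657. For Winnie-Prolapse against Winnie the 0 (4743 at an unadjusted p under 0.05) became 645 with DESeq2, 42 in 1 fit, 54 in females, 1191, 43 and 1489, and 0 to 1. The cause of these differences was not tested, beyond the smaller number of mice in fits of 1 sex. Per longest transcript the C57BL/6 levels were 26.5 (Sirt2), 4.78 (Sirt3), 5.51 (Sirt4), 3.06 (Sirt5), 9.38 (Sirt6) and 24.7 (Sirt7) CPM per kilobase. From counts without length the cytosolic share was 26.4%, 27.4% and 27.9% in C57BL/6, Winnie and Winnie-Prolapse mice, and the mitochondrial share 15.3% in C57BL/6 and 11.3% in Winnie-Prolapse mice. Library totals moved the median of all genes by −0.08 in Winnie and −0.07 in Winnie-Prolapse against C57BL/6. No paired analysis was possible because replicate numbers were given in accession order and pair no mice. The list counts without Winnie-Prolapse replicate 6 were chosen after seeing the data.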
